A study of Mus musculus with 4 samples.

Results

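A set of 10 genes of fibroblast growth factor (FGF) signalling was followed in mouse cerebral cortex at embryonic day 15 (E15): the receptors Fgfr1, Fgfr2 and Fgfr3, the feedback genes Spry1, Spry2, Spry4, Dusp6, Etv4 and Etv5, and the FGF carrier Fgfbp3. They are 10 of the 13289 genes in the deposited count table, all 10 were present, and all 10 passed the filter on low counts. The members were chosen by name as a pathway, but with their fold changes between Lhx2 cKO and control in these libraries already known, so their differences are given here as values, with no p-value of their own. The question asked of them is whether the lower Fgfr3 in Lhx2 cKO goes with a change of the feedback genes that FGF and MAP kinase signalling is known to induce. The study compared 2 libraries titled WT, called control here, with 2 libraries titled Lhx2cKO, read as a conditional knockout of the LIM-homeodomain factor Lhx2. Polyadenylated RNA came from fresh brain, and both groups are labelled cerebral cortex. The Cre driver, the allele, the strain, the litter and whether embryos were pooled are not given in the sources used here. Nothing states that replicates came from separate embryos, so the p-values rest only on spread between these libraries, which may be technical. That spread was for the most part estimated over many genes together, and not from each gene's own libraries.

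FGF ligands bind receptor tyrosine kinases together with heparan sulfate, and the activated receptor signals through adaptors, RAS and the kinases RAF, MEK and ERK. ERK induces genes that report on its activity and restrain it: Sprouty proteins block RAS-ERK signalling, Dusp6 removes the phosphates from ERK, and Etv4 and Etv5 are ETS transcription factors that carry the response. In the developing cortex FGF signalling is known for anterior patterning, for maintaining radial glia and later for the onset of gliogenesis, and Fgfr1, Fgfr2 and Fgfr3 are all expressed by progenitors of the ventricular zone.

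Libraries held 22294237 to 24609627 counts, so that 3 counts, taken as the floor of detection, were 0.122 to 0.135 CPM, the counts scaled to a common library size. The lowest member value, Spry4 with 69 counts, lay well above this floor. Lhx2 itself stood at 316 and 287 CPM in control against 239 and 247 CPM in Lhx2 cKO, a log2 fold change of -0.31 (SE 0.098, edgeR adjusted p = 0.0191). Which exons were deleted is not given in the sources used here, so the count over the whole gene checks the labels only by its direction. The call for Lhx2 was lost without control 1 (edgeR adjusted p = 0.176), without Lhx2 cKO 1 (0.102) and without Lhx2 cKO 2 (0.0538). The cortical genes Tbr1, with 239 to 256 CPM, and Emx1, with 38.9 to 119 CPM, were detected in every library. Of 13288 genes tested, 2758, or 20.8%, were called in edgeR's quasi-likelihood test at an adjusted p under 0.05.

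In Lhx2 cKO the receptor Fgfr3 was lower while 4 of the 6 feedback genes, Etv4, Etv5, Spry2 and Dusp6, were higher. The other 5 members, Fgfr1, Fgfr2, Spry1, Spry4 and Fgfbp3, overlapped between the groups. The libraries are of bulk tissue, in which fewer cells of a type and less RNA per cell cannot be told apart. The feedback genes had a median log2 fold change of 0.48, and all 6 estimates were above 0. Over all tested genes the median was 0.003 and 50.5% were above 0. In the counts that chose the members, 5 of 10 were past the call threshold against 20.8% of all genes tested, 4 of them higher against 11.6% and 1 lower against 9.17%. The groups did not overlap for 5 of 10 members and for 59.3% of all genes tested. Because these values chose the members, nothing is read from the counts.

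**Figure D1:**
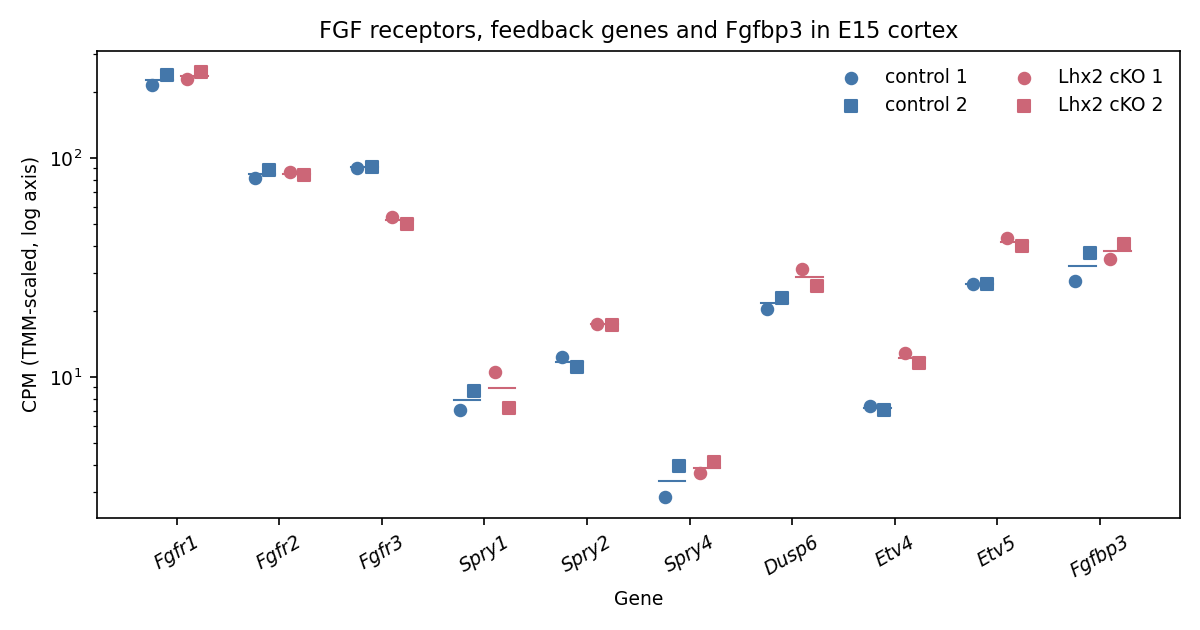
TMM-scaled CPM (log axis) of the 10 genes in each library, with control in blue, Lhx2 cKO in red, circles for replicate 1, squares for replicate 2 and short lines for group means. Fgfr3 lies at 90.6 and 91.7 CPM in control and lower, at 54.1 and 50.2, in Lhx2 cKO, and Etv4, Etv5, Spry2 and Dusp6 lie higher in both Lhx2 cKO libraries than in both control libraries.

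Upstream sequence is shown for 4 of the 5 genes whose groups did not overlap, as a stretch in which binding sites would be looked for. Of these, Fgfr3 was lower and Etv5, Spry2 and Dusp6 were higher in Lhx2 cKO. RefSeq windows in build GRCm38.p6 were used for 7 members (9 windows), and for Etv5 and Fgfr3, which have 2 windows each, 1 is printed. No window was used for Fgfr1, Etv4 or Spry4. Windows on 1 chromosome were left out for members but kept among all windows, so the member windows are not a full set. The 250 bases before the annotated start are given 5′ to 3′ on the gene's strand, with matches in capitals.
Fgfr3, chr5:33721474-33721723, plus strand: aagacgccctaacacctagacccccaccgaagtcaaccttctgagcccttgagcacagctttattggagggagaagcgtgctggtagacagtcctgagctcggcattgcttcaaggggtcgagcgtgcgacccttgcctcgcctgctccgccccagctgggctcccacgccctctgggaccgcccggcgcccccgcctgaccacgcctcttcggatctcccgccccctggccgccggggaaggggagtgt
Etv5, chr16:22438369-22438618, minus strand: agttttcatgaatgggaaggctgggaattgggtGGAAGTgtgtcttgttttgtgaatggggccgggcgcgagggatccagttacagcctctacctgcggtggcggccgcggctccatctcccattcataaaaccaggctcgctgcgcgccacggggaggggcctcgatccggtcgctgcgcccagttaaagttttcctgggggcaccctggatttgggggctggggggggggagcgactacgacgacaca
Spry2, chr14:105896820-105897069, minus strand: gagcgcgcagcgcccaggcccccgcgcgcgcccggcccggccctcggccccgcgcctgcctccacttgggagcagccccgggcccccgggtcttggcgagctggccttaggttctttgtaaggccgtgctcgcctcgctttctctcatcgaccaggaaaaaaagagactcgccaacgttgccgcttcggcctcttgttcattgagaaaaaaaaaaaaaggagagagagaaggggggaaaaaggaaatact
Dusp6, chr10:99262981-99263230, plus strand: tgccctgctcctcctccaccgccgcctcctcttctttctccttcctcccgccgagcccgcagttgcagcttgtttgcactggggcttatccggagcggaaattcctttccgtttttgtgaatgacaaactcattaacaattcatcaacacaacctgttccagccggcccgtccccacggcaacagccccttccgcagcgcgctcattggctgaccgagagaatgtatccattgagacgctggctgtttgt
Searched on both strands were TAATTA, the core of LIM-homeodomain sites, GGAAGT, an ETS core, and CAGGTG, an E-box. The Etv5 window printed held GGAAGT, beginning 217 bases before the start. The other Etv5 window held none of these motifs. The Fgfbp3 window held GGAAGT on the other strand, beginning 182 bases before the start. So 2 of the 9 member windows held GGAAGT, against 19.7% of all 32851 windows in the table. TAATTA was in 0 of the 9 windows and in 4.84% of all windows, and CAGGTG was in 0 of the 9 and in 17.2% of all. The printed windows were rich in G and C, at 66.8% for Fgfr3, 62.0% for Etv5, 62.4% for Spry2 and 56.4% for Dusp6, against a median of 52.4% over all windows. A match is a description of letters in a short window, and a missing match says only that these letters are not there.

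Among the receptors the difference was in Fgfr3. Fgfr3 (ENSMUSG00000054252.19), which in the nervous system is known from progenitors and the astrocyte lineage, had 90.6 and 91.7 CPM in the control libraries against 54.1 and 50.2 CPM in Lhx2 cKO. The 2 control libraries lay close together and both Lhx2 cKO libraries lay well below them. The means were 91.2 ± 0.806 CPM (SD, n = 2) and 52.2 ± 2.77 CPM (SD, n = 2), so that 57.2% of the control level was left, at a log2 fold change of -0.81 (SE 0.099). In the authors' deposited table its log2 fold change is -0.81 and it is marked down; genes carrying a mark there differ by 0.585 or more on the log2 scale.

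Fgfr1 (ENSMUSG00000031565.19), the most abundant of the receptors, had 217 and 240 CPM in control against 230 and 248 CPM in Lhx2 cKO. Its groups overlapped, and the log2 fold change was 0.07 (SE 0.097). Fgfr2 (ENSMUSG00000030849.19), a receptor also known from glial precursors, had 81.6 and 88.8 CPM in control against 86.9 and 83.6 CPM in Lhx2 cKO, with both Lhx2 cKO values inside the control range. Its mean was 85.2 CPM in both groups, with an SE of 0.097 on the log2 fold change. In GENCODE M21 an exon of Fgfr2 overlaps Ctbp2 on the same strand, and exons of Fgfr1, Fgfr3 and Spry1 overlap less studied transcripts on the other strand. Whether reads were counted by strand is not given in the sources used here, so a share of these counts may belong to the neighbours.

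Per length, on the scale of CPM per kilobase of the deposited gene length (RPKM), the order of the receptors differed between groups. In control, Fgfr1 stood at 23.2 ± 1.60 RPKM, Fgfr3 at 12.7 ± 0.113 and Fgfr2 at 8.25 ± 0.491 (SD, n = 2 each). In Lhx2 cKO, Fgfr1 stood at 24.2 ± 1.29 RPKM, Fgfr2 at 8.25 ± 0.227 and Fgfr3 at 7.29 ± 0.387 (SD, n = 2 each). Fgfr3 was thus above Fgfr2 in both control libraries and below it in both Lhx2 cKO libraries, where the values of 7.56 and 7.02 RPKM for Fgfr3 did not reach those of 8.41 and 8.09 RPKM for Fgfr2. The sum of the 3 receptors was 42.6 and 45.7 RPKM in control against 39.3 and 40.3 RPKM in Lhx2 cKO, or 0.901 times the control mean. Fgfr3 made up 29.7% and 28% of that sum in control and 19.2% and 17.4% in Lhx2 cKO. The share of Fgfr1 was 51.7% and 53.1% in control against 59.4% and 62.5% in Lhx2 cKO.

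**Figure D2:**
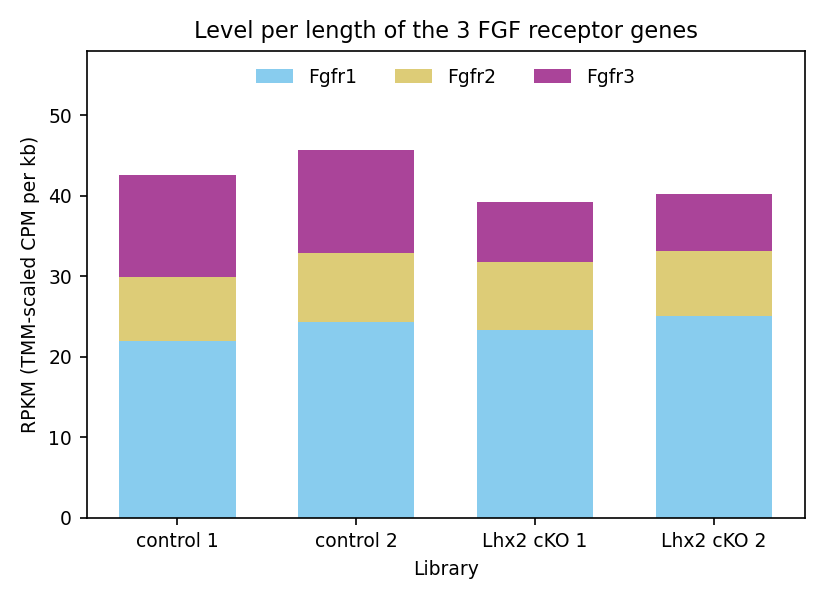
Level per length (RPKM) of Fgfr1, Fgfr2 and Fgfr3, stacked for each library from 0. The Fgfr3 segment shrinks from 12.7 and 12.8 RPKM in control to 7.56 and 7.02 RPKM in Lhx2 cKO, while the summed height differs less, 42.6 and 45.7 against 39.3 and 40.3 RPKM.

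The ETS factors had the largest differences among the feedback genes. Etv4 (ENSMUSG00000017724.15) had 7.42 and 7.08 CPM in control against 12.9 and 11.6 CPM in Lhx2 cKO. The means were 7.25 ± 0.241 and 12.2 ± 0.887 CPM (SD, n = 2), which is 0.76 on the log2 scale (SE 0.176) or 1.69-fold. Etv5 (ENSMUSG00000013089.16) had 26.6 and 26.8 CPM in control against 43.2 and 39.9 CPM in Lhx2 cKO. Its means were 26.7 ± 0.118 and 41.6 ± 2.32 CPM (SD, n = 2), which is 0.64 on the log2 scale (SE 0.109) or 1.56-fold. Both genes were higher in each Lhx2 cKO library than in each control library. Their ratio per length differed little, with Etv5 at 2.71 and 2.86 times Etv4 in control and at 2.54 and 2.60 times in Lhx2 cKO. The authors' deposited table marks both as up, with log2 fold changes of 0.75 for Etv4 and 0.63 for Etv5. Spry2, at 0.55, and Dusp6, at 0.39, are marked neither up nor down there.

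The Sprouty genes encode inhibitors of RAS-ERK signalling downstream of receptor tyrosine kinases. They differed in whether their groups overlapped, and whether their fold changes differ from each other was not tested. Spry2 (ENSMUSG00000022114.6) had 12.4 and 11.2 CPM in control against 17.5 and 17.4 CPM in Lhx2 cKO. The groups were apart, with means of 11.8 ± 0.798 and 17.5 ± 0.0567 CPM (SD, n = 2) and a log2 fold change of 0.56 (SE 0.15), or 1.48-fold. Spry1 (ENSMUSG00000037211.13) had 7.09 and 8.64 CPM in control against 10.6 and 7.27 CPM in Lhx2 cKO. Only Lhx2 cKO 1 lay above the control libraries for Spry1, and its log2 fold change of 0.18 had an SE of 0.197. Spry4 (ENSMUSG00000024427.8) was the scarcest member, with 2.85 and 3.92 CPM in control against 3.65 and 4.09 CPM in Lhx2 cKO. Its groups overlapped and its log2 fold change was 0.19 (SE 0.283). For Spry1 the estimate ran from -0.12 to 0.42 and for Spry4 from -0.03 to 0.44 when 1 library was left out, so at this depth and number of libraries neither direction is fixed.

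Dusp6 (ENSMUSG00000019960.9), the phosphatase of ERK, had 20.5 and 23.1 CPM in control against 31.2 and 26.2 CPM in Lhx2 cKO. Both Lhx2 cKO libraries were higher, and they differed from each other more than the control libraries did. The means were 21.8 ± 1.83 and 28.7 ± 3.54 CPM (SD, n = 2), which is 0.40 on the log2 scale (SE 0.125) or 1.32-fold. Dusp6 was past the call threshold in the edgeR fit of all libraries but not in DESeq2, not without control 1 and not without Lhx2 cKO 1. Its estimate ran from 0.27 to 0.52 with 1 library left out. Spry2 missed the threshold without control 2. These calls come from the values that chose the members and support nothing.

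Fgfbp3 (ENSMUSG00000047632.12), a secreted carrier that releases FGFs from heparan sulfate, had 27.5 and 37.0 CPM in control against 34.7 and 40.6 CPM in Lhx2 cKO. The ranges overlapped, and the log2 fold change was 0.22 (SE 0.12). The 2 control libraries differed 1.34-fold for this gene, more than the group means, which differed 1.17-fold. Without control 2 its estimate was 0.45 and past the threshold, and without control 1 it was 0.01.

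Added together per length, the 6 feedback genes had 24.4 and 25.4 RPKM in control against 37.4 and 33.6 RPKM in Lhx2 cKO, a 1.43-fold higher mean. In control the order was Dusp6 at 6.96 RPKM, Etv5 at 6.50, Spry2 at 5.66, Spry1 at 2.71, Etv4 at 2.34 and Spry4 at 0.712. Dusp6, with 6.54 and 7.37 RPKM, and Etv5, with 6.48 and 6.52 RPKM, nearly touched there. In Lhx2 cKO Etv5 came first at 10.1 RPKM, followed by Dusp6 at 9.18 and Spry2 at 8.36, and Etv4 at 3.95 stood above Spry1 at 3.07. The values of Etv5, 10.5 and 9.73 RPKM, and of Dusp6, 9.98 and 8.38 RPKM, overlapped in Lhx2 cKO, so their order there is not settled. Feedback RPKM per receptor RPKM was 0.573 and 0.555 in control against 0.953 and 0.834 in Lhx2 cKO.

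The other genes of the pathway give the setting, in lists that hold none of the 10 members. The lists were chosen by function but with earlier results of these data known, so their counts are a description. Of 98 such genes tested, 17 were called higher and 9 lower, together 26.5% against 20.8% of all genes tested. Among 16 other feedback and ERK-responsive genes 13 were tested, with 2 called higher, 2 called lower and a median log2 fold change of 0.02. Flrt2, a membrane protein with fibronectin and leucine-rich repeats, rose from 65 and 70.5 to 135 and 152 CPM (log2 fold change 1.09, SE 0.098, edgeR adjusted p = 1.70e-11). Its relative Flrt3, which is known to be induced with FGF signalling, fell from 85.0 and 93.7 to 47.7 and 52.8 CPM (log2 fold change -0.83, SE 0.101, edgeR adjusted p = 2.68e-08). The ephrin receptor gene Epha4 fell from 273 and 308 to 171 and 186 CPM (log2 fold change -0.70, edgeR adjusted p = 5.24e-07). Spred3, a Sprouty-related inhibitor, was higher by 0.38 on the log2 scale (edgeR adjusted p = 0.00966), a call lost without control 2 (0.103) and without Lhx2 cKO 2 (0.104), and it overlaps Ggn on the other strand. The Sprouty relatives Spred1 and Spred2, at -0.04 and -0.06 on the log2 scale, did not pass the threshold. Nor did the ERK phosphatase genes Dusp4 and Dusp7, at 0.04 and 0.03, or the cyclin gene Ccnd1, at -0.001. The SEs of these genes were 0.105 to 0.161. Also not called were Il17rd at 0.40 (SE 0.196), Etv1 at -0.33 (SE 0.247), Epha2 at 0.10 (SE 0.299) and Phlda1 at 0.02 (SE 0.176). Without control 2 or Lhx2 cKO 2 only 1 gene of this list was called higher, in each case with 2 lower.

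**Figure D3:**
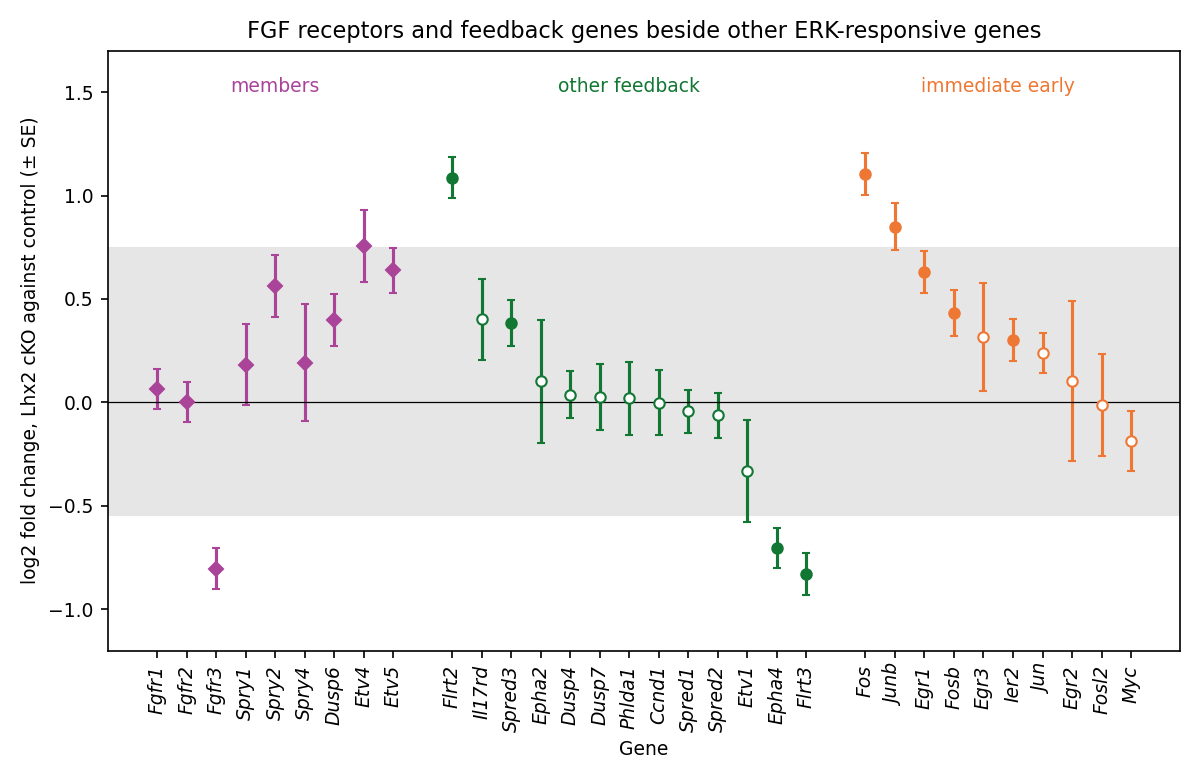
Difference between Lhx2 cKO and control on the log2 scale, with its SE, for receptor and feedback members (purple diamonds, not tested), other feedback and ERK-responsive genes (green) and immediate early genes (orange), with filled circles for genes called and open circles for genes not called. The grey band holds the middle 90% of all tested genes, from -0.54 to 0.75, with Fgfr3 (-0.81) and Flrt3 (-0.83) among those below it and Etv4 (0.76), Flrt2 (1.09) and Fos (1.11) among those above it.

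Immediate early genes can be switched on within minutes by growth factors, depolarisation and stress, so they are not particular to FGF or ERK. What raised them here was not tested. Of 10 tested, 5 were called higher and 0 lower in edgeR, against 11.6% and 9.17% of all genes tested. Their median log2 fold change was 0.31. At an unadjusted p under 0.05, 6 were higher and 0 lower, and DESeq2 called 4 higher and 0 lower. Fos rose from 37.2 and 38.5 to 83.5 and 79.4 CPM (log2 fold change 1.11, SE 0.101, edgeR adjusted p = 2.09e-11). Egr1, a direct target of ERK signalling, rose from 46.6 and 46.1 to 73.7 and 69.8 CPM (log2 fold change 0.63, SE 0.1, edgeR adjusted p = 5.75e-06). Junb was at 0.85 (edgeR adjusted p = 2.13e-07) and Fosb at 0.43 (edgeR adjusted p = 0.00365) on the log2 scale, and Junb overlaps Prdx2 on the other strand. The fifth gene called was Ier2, at 0.30 (edgeR adjusted p = 0.0296), a call lost with library totals alone, in DESeq2, without control 2 and without Lhx2 cKO 2. Myc, at -0.19 (SE 0.143), did not pass the threshold.

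Of 18 secreted FGF ligand genes, 5 were among the genes analysed, and all 5 were scarce, with 0.879 to 4.79 CPM. None of the 5 was called by edgeR, DESeq2 or limma-voom, and at an unadjusted p under 0.05 edgeR had 1 higher and 0 lower. That 1 gene was Fgf18, a ligand made by cortical neurons, with 3.30 and 2.56 CPM in control against 4.66 and 4.79 CPM in Lhx2 cKO (log2 fold change 0.69, SE 0.276, edgeR adjusted p = 0.0713). Fgf2, Fgf9 and Fgf17 had estimates of 0.33 to 0.41 and Fgf7 one of -0.62, with SEs of 0.394 to 0.438, so changes of that size were not detectable at this depth. Among the 4 intracellular FGF homologous factors, which bind sodium channels and do not act through FGF receptors, Fgf11 fell from 69.4 and 60.0 to 37.4 and 32.9 CPM (log2 fold change -0.88, SE 0.106, edgeR adjusted p = 2.25e-08). Fgf12, Fgf13 and Fgf14 did not pass the threshold.

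Of 11 other receptors and coreceptors tested, 1 was called higher and 3 lower. Fgfr4, the fourth FGF receptor kinase and scarce in cortex, rose from 5.57 and 5.40 to 11.7 and 9.88 CPM (log2 fold change 0.98, SE 0.192, edgeR adjusted p = 0.000181). Per length it reached 3.05 RPKM in Lhx2 cKO, still below the 7.29 RPKM of Fgfr3 there. Fgfrl1, a receptor that lacks the kinase, fell from 16.1 and 18.1 to 11.2 and 12 CPM (log2 fold change -0.56, SE 0.152, edgeR adjusted p = 0.0056), a call lost without control 2 (0.0719). The glypicans carry heparan sulfate at the cell surface, and of these Gpc4 fell from 95.4 and 103 to 56.1 and 64.4 CPM (log2 fold change -0.72, edgeR adjusted p = 4.99e-07). Gpc3 fell from 6.10 and 6.68 to 1.71 and 3.35 CPM (log2 fold change -1.33, edgeR adjusted p = 0.000378), an estimate that ran from -1.90 (Lhx2 cKO 2 left out) to -0.93 (Lhx2 cKO 1 left out). The abundant Gpc1 and Sdc3, at -0.12 and 0.12, did not pass the threshold.

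Among 14 genes of heparan sulfate synthesis and editing, 3 were called higher and 0 lower in edgeR, 21.4% against 20.8% of all genes tested, with 7 higher and 0 lower at an unadjusted p under 0.05 and 3 higher and 0 lower in DESeq2. Upper-quartile factors gave 5 higher, and without Lhx2 cKO 2 there were 2 higher and 1 lower. Sulf2, which removes sulfate from heparan sulfate outside the cell, rose from 22.6 and 29.9 to 52.8 and 57.3 CPM (log2 fold change 1.07, SE 0.115, edgeR adjusted p = 1.65e-09), and it overlaps Ncoa3 on the other strand. Glce, the epimerase of heparan sulfate, was at 0.53 on the log2 scale (edgeR adjusted p = 0.000568). Ext1, a polymerase of the chain, was at 0.29 (edgeR adjusted p = 0.0254), and its call was lost without any 1 of the 4 libraries, with adjusted p from 0.0542 to 0.164.

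Between receptor and ERK few genes were called. Of 27 adaptor and RAS-ERK transducer genes tested, 0 were called higher and 2 lower in edgeR, 7.41% against 20.8% of all genes tested, with 0 higher and 3 lower at an unadjusted p under 0.05 and 0 higher and 1 lower in DESeq2. The median log2 fold change was -0.10. The adaptor gene Crkl, at -0.29 (edgeR adjusted p = 0.0357), and Cbl, a ubiquitin ligase of activated receptors, at -0.28 (edgeR adjusted p = 0.0398), were the 2 called. Both calls were lost in DESeq2 (0.0637 and 0.0755) and in at least 3 of the 4 fits that left out 1 library, with adjusted p up to 0.325 for Crkl and 0.189 for Cbl, and without control 1, control 2 or Lhx2 cKO 1 no gene of the list was called lower. Without control 1, 1 gene was called higher. The call of Cbl was also lost with library totals alone (0.0553). The ERK gene Mapk3, at -0.03, and the docking protein gene Frs2, at -0.12, did not pass the threshold.

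**Figure D4:**
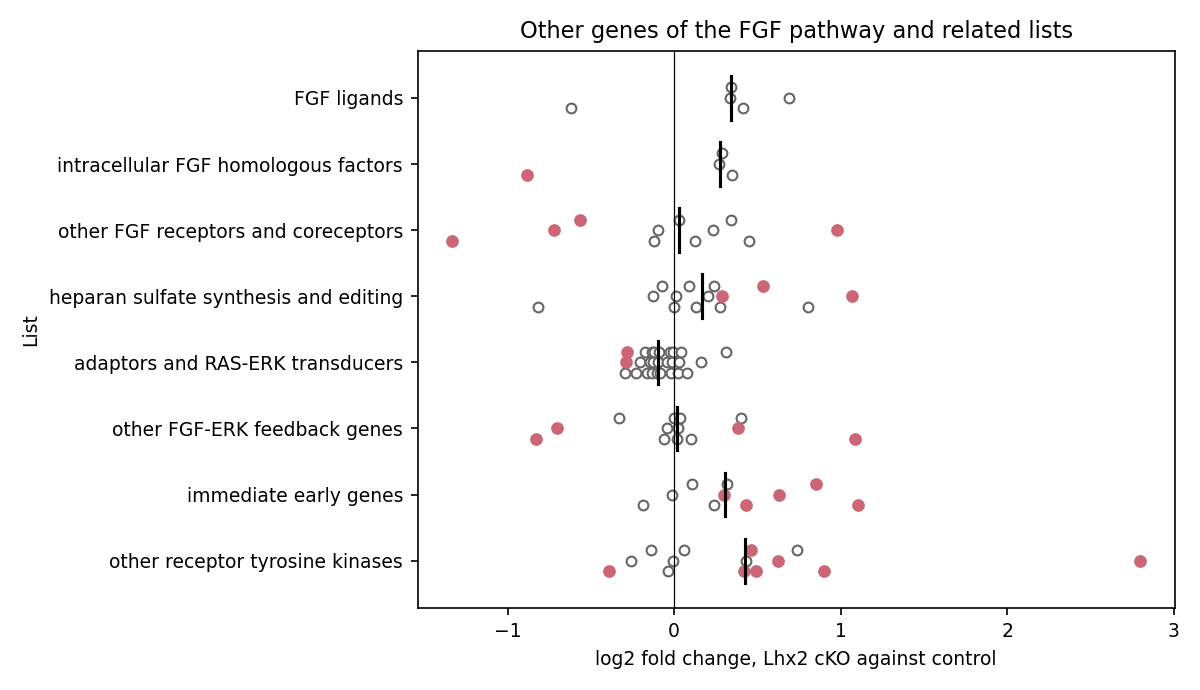
Difference between Lhx2 cKO and control on the log2 scale for each tested gene of 8 lists that hold none of the 10 members, with called genes filled in red, other genes open and a black bar for each list's median. Called adaptors lie at -0.29 and -0.28, and the rightmost point is Egfr at 2.80.

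Markers of several cell types moved together with the members. The summed level of 12 radial glia markers was 943 and 1000 CPM in control against 890 and 861 CPM in Lhx2 cKO, with 6 called lower, 1 called higher and a median log2 fold change of -0.28. Fgfr3 stood 0.52 below that median, and each of the 6 feedback genes stood 0.46 to 1.04 above it. The markers themselves ran from -1.24 to 0.47, so Fgfr3, Dusp6, Spry1 and Spry4 lay within their range and Spry2, Etv4 and Etv5 above it. The 10 cell cycle markers summed to 404 and 459 CPM in control against 269 and 269 CPM in Lhx2 cKO, with 8 called lower, and the 6 intermediate progenitor markers to 724 and 725 CPM against 421 and 443 CPM, with 5 called lower. Relative to the control mean, Fgfr3 was at 0.594 and 0.551 in the Lhx2 cKO libraries, close to cell cycle markers at 0.625 and 0.623 and intermediate progenitor markers at 0.581 and 0.612.

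Of glial, microglial and vascular markers most were called higher. The feedback genes stood at 1.51 and 1.35 times the control mean of their summed CPM in Lhx2 cKO. Astrocyte markers, 6 of 7 analysed, summed to 72.6 and 79.5 CPM in control against 121 and 118 CPM in Lhx2 cKO. Of them, 4 were called higher and 0 lower. Aldh1l1 alone went from 4.83 and 4.80 CPM in control to 30.8 and 27 CPM in Lhx2 cKO. Gja1 and Aldoc, at 0.08 and 0.09 on the log2 scale, were not called, so the sum is not a rise of the whole list. Oligodendrocyte precursor markers summed to 46.8 and 53.6 CPM against 87.9 and 96.5 CPM, with 5 of 6 called higher. Microglia markers summed to 101 and 101 CPM against 197 and 218 CPM, with 6 of 8 called higher and 1 lower. Vascular and meningeal markers, 7 of 8 analysed, summed to 180 and 201 CPM against 226 and 256 CPM. Of these, 4 were called higher, Cldn5, Cdh5, Pecam1 and Kdr, and 1 lower, Col1a1. Col1a1 had 25.7 and 23 CPM in control against 4.44 and 1.65 CPM in Lhx2 cKO, so this list did not move as 1. Of the list of hem and choroid plexus markers, 3 of 8 were analysed, Wnt2b, Wnt5a and Rspo2. Wnt3a, Ttr, Folr1, Otx2 and Lmx1a were not among the genes analysed, so the list says nothing of choroid plexus. The 3 genes summed to 7.96 and 6.88 CPM in control against 17.1 and 20.4 CPM in Lhx2 cKO, with 2 called higher. Rspo2 alone went from 3.22 and 1.48 CPM to 8.26 and 12.1 CPM. The 8 neuron markers summed to 4630 to 5090 CPM over the 4 libraries, with 2 called higher, Stmn2 at 0.60 and Syt1 at 0.83, and 2 lower, Rbfox3 at -0.43 and Neurod6 at -0.32. Those of the ventral telencephalon and interneurons, 6 of 8 analysed, summed to 166 to 206 CPM, with 1 called higher. None of the 72 marker genes analysed was at 0 counts in any library. The part of these cell types in the differences of Fgfr3 and of the feedback genes was not tested.

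**Figure D5:**
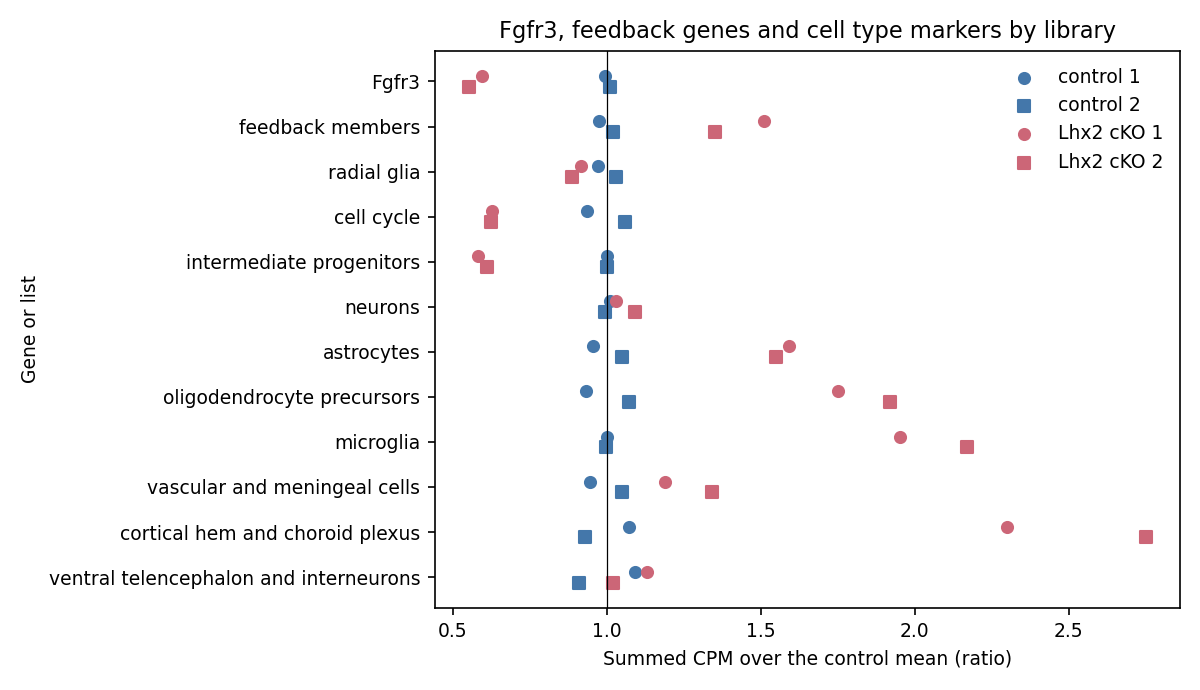
Summed CPM of Fgfr3, of the 6 feedback genes and of each cell type marker list in every library, divided by the control mean (1 on the axis). Fgfr3 lies near the cell cycle and intermediate progenitor markers, and the feedback genes lie between the vascular and the astrocyte markers in Lhx2 cKO 2 (1.34, 1.35 and 1.55).

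Genes with a pattern most like that of Fgfr3 were sought by Euclidean distance in centred log2 CPM over the 4 libraries, among 9171 genes averaging 10 CPM or more. The nearest were Cttnbp2, a cortactin-binding protein gene, at a distance of 0.0347, Limch1 at 0.0404, Inppl1, an inositol phosphatase gene, at 0.0439, Cecr2 at 0.0449 and Mcm2, a subunit of the replicative helicase and one of the cell cycle markers, at 0.0449. Inppl1 overlaps Phox2a on the other strand. Cttnbp2 had 333 and 341 CPM in control against 196 and 181 CPM in Lhx2 cKO. Mcm2 had 30.9 and 32.3 CPM in control against 18.3 and 17.4 CPM in Lhx2 cKO. Likeness over 4 libraries in 2 groups mostly reflects 1 difference between the groups, and these genes were picked for it.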

How the data were processed

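RNA-seq of E15 mouse cortex was analysed in 4 libraries, grouped and numbered by their titles. The authors deposited raw read counts per gene, 1 column per library; the submitters' processing notes name Trim Galore, Subread, featureCounts, edgeR and build mm39, without settings. The same table holds the authors' log2 fold change and log2 CPM, p-value and adjusted p-value, and -log10 of the latter, with column names per the file headers; of these only log2 fold changes and marks were used. Row totals began at 102 counts.

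Counts were fitted with edgeR 4.0.16 in R 4.3.3: TMM, filterByExpr (minimum count 10, 1 gene removed), then glmQLFit with glmQLFTest for Lhx2 cKO minus control, two-sided, Benjamini-Hochberg adjusted over 13288 genes. "Called" means an adjusted p under 0.05. SEs are the absolute log2 fold change over the square root of F. CPM are TMM-scaled, and RPKM divide them by the deposited gene length. The fit was tested on data simulated from its own fitted spread with few genes changed, which checks the code and not the design. The common biological coefficient of variation was 8.27%. Libraries of 1 group differed by more than sampling noise, with a chi-square of 13.9 (control) and 14.3 (Lhx2 cKO) times its degrees of freedom. The floor of detection covers counting error only, while the SEs also hold the fitted spread between libraries. That spread was mostly shared over genes, with 38.7 prior against 2 residual degrees of freedom. SEs and p-values thus hold little of a gene's own spread.

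Members, lists and tests were chosen with earlier results of these data known. Named were Lhx2, all members, up to 4 called genes per pathway list by smallest p, and the 5 genes nearest to Fgfr3; genes given as not passing the threshold, Fgf18, Ier2 and the other ligands were added after their values were seen. Alternatives were RLE, upper-quartile and total-count scaling, no filter, a mean count of at least 50, a replicate block, DESeq2 1.42.0, limma-voom (3.58.1), an adjusted p under 0.01 and leaving out each library. Gene overlaps come from GENCODE M21 (GRCm38), promoter sequences from RefSeq (GRCm38.p6). No coordinates of the counts' build were used.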

Additional observations from a re-analysis of the deposited data

How the results depend on the processing

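With all 4 libraries, Fgfr3 kept a log2 fold change of -0.81 to -0.80 and the feedback median one of 0.47 to 0.49 under every scaling, filter, block and tool run. An adjusted p under 0.01 left 1697 genes called, 972 of them higher, fewer by construction; its counts by direction and of members were added after seeing the data. The groups share only replicate numbers: the differences of replicate 1 from replicate 2 in control and in Lhx2 cKO correlated at 0.001 over genes. Fitting the replicate block gave 2874 called genes, 2736 of them shared with the fit without it, and the same 5 members. Leaving out 1 library lets the lone library of a group be taken to vary like the other group. It gave 1633 to 2396 genes called, 865 to 1395 of them higher, the count being 1633 without Lhx2 cKO 2 and 1790 without control 1. Fgfr3 ranged from -0.86 to -0.755 and the feedback median from 0.417 to 0.54. Pathway genes called numbered 20 to 23, with 12 to 17 higher and 5 to 9 lower, the 5 being without control 2. Upper-quartile factors gave 5 heparan sulfate genes called higher in place of 3. Fewer libraries are part of how these fits are made; other causes were not tested. Lhx2 and the 22 pathway genes named by the rule kept their direction under these alternatives; the other called genes named were not followed through them. Depth limits the scarce genes: Spry4, with 69 to 98 counts a library, had an SE of 0.283 on the log2 scale, and the estimates of Spry1, Spry4 and Fgfr1, which were not called, changed sign when 1 library was left out, as did that of Fgfr2.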

Other observations

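Other receptor tyrosine kinases, which feed the same RAS-ERK cascade, numbered 14 among the genes tested, 9 of them with estimates above 0 and the median at 0.43 on the log2 scale. In edgeR 6 were called higher and 1 lower, against 11.6% and 9.17% of all genes tested. Egfr rose from 2.02 and 1.88 to 13.2 and 14.0 CPM (log2 fold change 2.80, SE 0.217, edgeR adjusted p = 2.26e-13). Without control 1 the list had 3 called higher and without Lhx2 cKO 2 it had 4, while none was called lower without control 2 or Lhx2 cKO 1. Ntrk2, the receptor of BDNF, rose from 112 and 131 to 180 and 194 CPM (log2 fold change 0.62, SE 0.098, edgeR adjusted p = 5.03e-06). Pdgfra, a receptor of oligodendrocyte precursors, was at 0.90 on the log2 scale (edgeR adjusted p = 0.000116), and it overlaps transcripts on both strands. Kdr, a receptor of endothelial cells, was at 0.49 (edgeR adjusted p = 0.00381), with 0.23 and an adjusted p of 0.316 without control 1. Erbb4, at 0.42, and Flt1, at 0.46, were the other 2 called higher, and Kit, at -0.39, was the 1 called lower; these 3 were named after their values were seen. Egfr and Pdgfra are also among the oligodendrocyte precursor markers and Kdr among the vascular markers above. Igf1r and Insr, at -0.04 and -0.01, did not pass the threshold. Per length, Egfr reached 1.20 RPKM and Ntrk2 9.69 RPKM in Lhx2 cKO, against 7.29 RPKM for Fgfr3. Whether these receptors bear on the feedback genes was not tested.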
